A study of Danio rerio with 4 samples.

Results

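The Nodal, Lefty and left-right genes described here are the 7 zebrafish genes ndr1, ndr2, spaw, lft1, lft2, dand5 and elovl6. Their probes were taken as all those to which the platform's annotation gives one of these symbols, which gave 9 probes of 43603 on the array, for 7 of 15528 named genes. Hearts were dissected by hand from embryos and pooled, and their RNA was labelled with Cy3 and hybridised to Agilent arrays of 1 colour. In the Bmp2b group, 2 arrays held hearts of Tg(hsp70l:bmp2b)fr13 embryos, which carry bmp2b under the heat-inducible hsp70l promoter, so that the whole embryo and not the heart alone can make the ligand. In the control group, 2 arrays held hearts of wild-type embryos. Both groups were heat-shocked at 18 hours post fertilization (hpf) for 30 min at 37 °C and taken at 21 to 23 hpf, and neither the strain of the wild type nor the number of hearts in a pool is given in the labels. The comparison asks which heart genes change when Bmp2b is raised.

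Nodal proteins are secreted ligands of the TGF-β family that bind activin receptors together with the coreceptor Tdgf1 and signal through Smad2, Smad3 and Foxh1. Lefty proteins, which Nodal signalling itself turns on, block the ligand and its coreceptor and so limit the signal in space and time. In zebrafish spaw is the Nodal ligand of the left lateral plate mesoderm, dand5 encodes an antagonist made around the ciliated left-right organizer, lft2 is turned on in the left heart field, and lft1 and ndr2 are also expressed on the left of the dorsal diencephalon.

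The arrays differed in brightness before any scaling. The median raw intensity of wild type was 49 and 47, that of Bmp2b arrays 1 and 2 was 35 and 42, and 57.4% and 57.1% of probes lay above background in wild type against 34.1% and 46.2% on the Bmp2b arrays. Background was set at 2 times the 5th percentile of raw intensity on each array, which was 33, 32, 50 and 48 in the same order. The heart muscle markers were above background on all 4 arrays for 9 of 9 genes. Their summed normalized intensity was 837157 and 729329 in wild type and 644539 and 473209 in Bmp2b. By the brightest probe, 3 of the 9 were higher in Bmp2b, 2 lower and 4 did not pass (limma, adjusted p under 0.05). Neural, epidermal, and notochord and floor plate markers were also detected, and all 12, all 6 and all 6 of the tested genes of these lists were higher on Bmp2b array 2 than on array 1. So were 7 of 7 endoderm and yolk and 5 of 5 epithalamus genes, against 4 of 7 of skeletal muscle, 1 of 9 of heart muscle and 0 of 5 of blood. Over all genes tested it was 5769 of 11376. The wild-type arrays differed by less than the spots of a probe on them (root mean square difference of 0.0737 log2 units over 23 probes with 5 spots each, where the spot spread gives 0.122), so the calls of the member genes are given with the wild-type arrays as 2 samples and with their mean counted as 1 sample. Of 22 probes called among the pathway, marker and elongase genes, 0 passed in limma with wild type as 1 sample (16 at an unadjusted p under 0.05), and 1, of the heart muscle marker myh6, passed when the prior on the variance also followed intensity and was robust. The wild-type arrays came from slides 1 and 2 and both Bmp2b arrays from slide 3, so slide and genotype cannot be told apart. Nothing in the labels says that the 2 arrays of a group came from separate pools of embryos, so p-values measure only the spread between these arrays.

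The bmp2b probe read 328 and 384 in raw intensity on the wild-type arrays and 4876 and 15659 on the Bmp2b arrays, above both wild-type values each time.

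In Bmp2b hearts lft1 and elovl6 were lower than in wild type, and ndr2, measured in wild type, was not above background. Of the other members, lft2 was bright on all 4 arrays and did not pass the test, while ndr1 and spaw were below background in both groups, and 1 of the 2 dand5 probes was just above background in wild type alone. Testing required a signal above background on 2 or more of the 4 arrays, and 6 member probes of 5 genes did so, all 6 through both wild-type arrays. In the limma fit over 24454 probes, 4 of these 6 probes, from 3 genes, were lower in Bmp2b hearts and 0 higher (adjusted p under 0.05). Of all tested probes 9.03% were lower and 6.82% higher. The ndr2 call rests on Bmp2b values under background. An unadjusted p under 0.05 was held by 5 of the 6 probes, all lower. Among them were ndr2 and the second dand5 probe, whose Bmp2b values were under background. Both entered the test through wild type alone, so their direction does not count as support. By their brightest probe, 4367 of 11376 genes tested had one, in either direction. That is a count of genes and not of probes that were lower, so the shares are not alike. With the wild-type mean as 1 sample, limma called 0 of these 6 (4 at an unadjusted p under 0.05), and 2 of them, lft1 and ndr2, when the variance prior followed intensity and was robust. In pooled tissue, fewer cells that express a gene and less of its RNA per cell cannot be told apart.

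**Figure D1:**
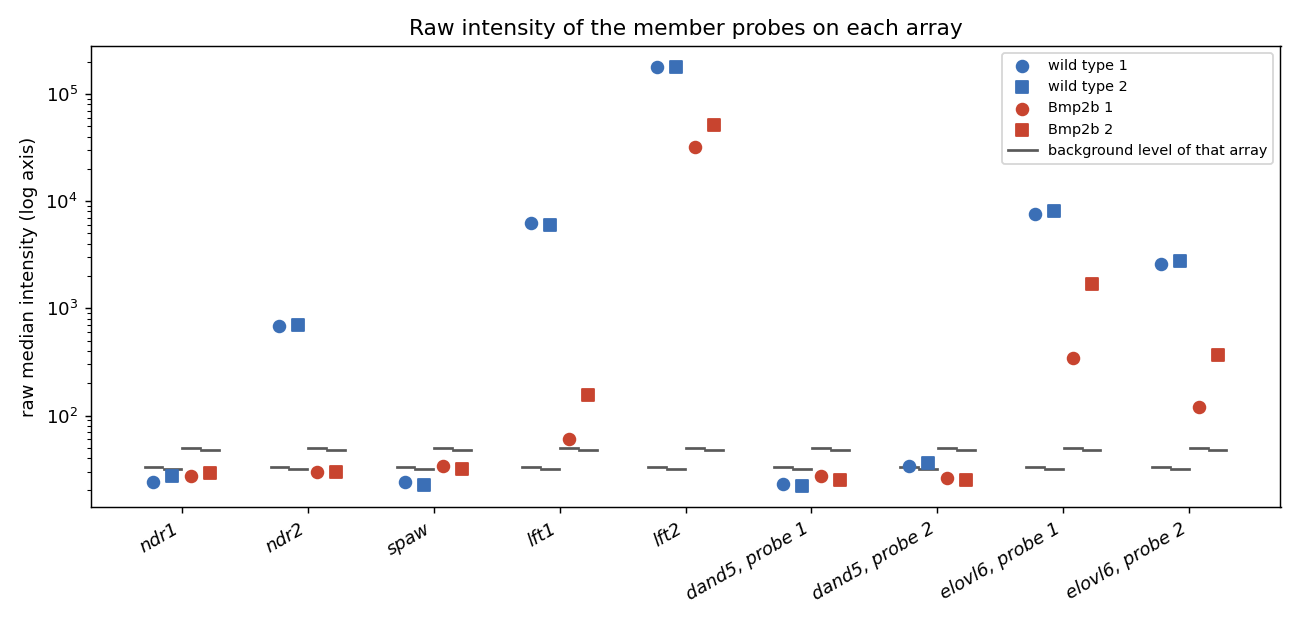
Raw median intensity (log axis) of each of the 9 member probes on the 2 wild-type arrays (blue) and the 2 Bmp2b arrays (red), with short grey lines at each array's background level. The lft1, lft2, ndr2 and elovl6 points lie lower on both Bmp2b arrays, while ndr1, spaw and the first dand5 probe lie under the background line on all 4 arrays. The values are not scaled. Over all tested probes the median raw ratio of wild type to Bmp2b was 3.46 for array 1 and 1.62 for array 2, and lft2 did not pass after normalization.

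Of the ligand genes, ndr2 (cyclops) was the only one with signal above background. Its probe A_15_P116468 (gene ID 30292, NM_139133) read 689 and 706 in raw intensity on the wild-type arrays and 30 on both Bmp2b arrays. The groups did not overlap after normalization. On the normalized scale 38.7% of all tested probes had both Bmp2b arrays below both wild-type arrays. The wild-type values of ndr2 were 20.9 and 22.1 times background and the Bmp2b values 0.600 and 0.625 times it. The same spots in the authors' processed intensities held 554 and 592 in wild type and 1.98 and 3.04 in Bmp2b, near the lowest values of that table, which were 1.59 to 1.72. On the normalized log2 scale ndr2 lay at 8.77 and 8.83 in wild type against 5.91 and 5.93. As the Bmp2b values were not well above background they give only a limit, and ndr2 was at least 4.05-fold lower on the mean of the 2 Bmp2b arrays. This limit sets the wild-type mean against the mean of the lowest levels that count as above background on these arrays. Those levels were 7.16 on array 1 and 6.40 on array 2, so the limit does not hold for each array singly. Across the array, 10.7% of all 43603 probes were above background on both wild-type arrays and on neither Bmp2b array. The fitted difference of -2.88, which takes the Bmp2b values under background as they are and is no test of the limit, had a limma adjusted p of 0.0138. The adjusted p was 0.190 with wild type as 1 sample and 0.0138 when the prior also followed intensity and was robust, and 0.0627 with scaling to the 75th percentile.

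The other Nodal ligand genes gave no signal. The spaw probe A_15_P116315 (gene ID 338101) read 24.0 and 22.5 in wild type and 34.0 and 32.0 in Bmp2b, which is 0.727, 0.703, 0.680 and 0.667 times the background of each array. The higher raw values on the Bmp2b arrays thus went with a higher background there. The ndr1 (squint) probe A_15_P120094 (gene ID 799352) read 24.0 and 27.0 in wild type against 27.0 and 29.0, between 0.540 and 0.844 times background. Across all probes, 40.2% were above background on none of the 4 arrays, and a difference in spaw or ndr1 was not detectable with these probes.

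The Lefty gene lft1 was lower on both Bmp2b arrays and above background on all 4 arrays. Its probe A_15_P101370 (gene ID 30145, NM_130960) read 6190 and 5939 in raw intensity on the wild-type arrays and 60.0 and 155 on Bmp2b arrays 1 and 2. Both Bmp2b values were far under both wild-type values, and they lay at 1.20 and 3.23 times background, so that the probe was only just above background on Bmp2b array 1. On the normalized log2 scale the levels were 11.77 and 11.74 in wild type and 7.51 and 7.66 in Bmp2b. The difference was -4.18 ± 0.12 on the log2 scale (SE), or 18.1-fold lower, with a limma adjusted p of 0.0116. This was the 4th most negative difference of the 24454 tested probes. Taken singly, Bmp2b array 1 was 19.0-fold and array 2 17.2-fold below the wild-type mean. With wild type as 1 sample the adjusted p was 0.189, and 0.00513 when the prior also followed intensity and was robust. In the processed intensities, where lft1 read 8190, 7860, 25.9 and 137, the difference after quantile normalization was -5.30, or 39.5-fold.

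The second Lefty gene, lft2, behaved otherwise. Its probe A_15_P108292 (gene ID 30146, NM_130961) read 178622 and 177416 in wild type and 32071 and 51523 in Bmp2b, 641 times background or more on every array. Raw intensity was thus 5.55 and 3.46 times higher in wild type, but bright probes were dimmer in general on the Bmp2b arrays. Over the 210 probes above 100000 on both wild-type arrays the median of that ratio was 4.47 and 2.45. Of these probes, 28.6% had a larger ratio than lft2 for Bmp2b array 1 and 14.8% for array 2. After normalization the log2 levels were 16.64 on both wild-type arrays and 16.41 and 15.90 on the Bmp2b arrays. Both Bmp2b arrays were below wild type, as for 38.7% of tested probes (28.9% had both Bmp2b arrays above wild type), and they differed from each other by more than array 1 differed from wild type. The difference was -0.49 ± 0.21 (SE) and did not pass (limma adjusted p = 0.178, and 0.640 with wild type as 1 sample). It was -0.24 for Bmp2b array 1 and -0.75 for array 2. The sign stayed negative under each scaling tried, between -0.79 with scaling to the 75th percentile and -0.22 with the processed intensities scaled the same way.

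**Figure D2:**
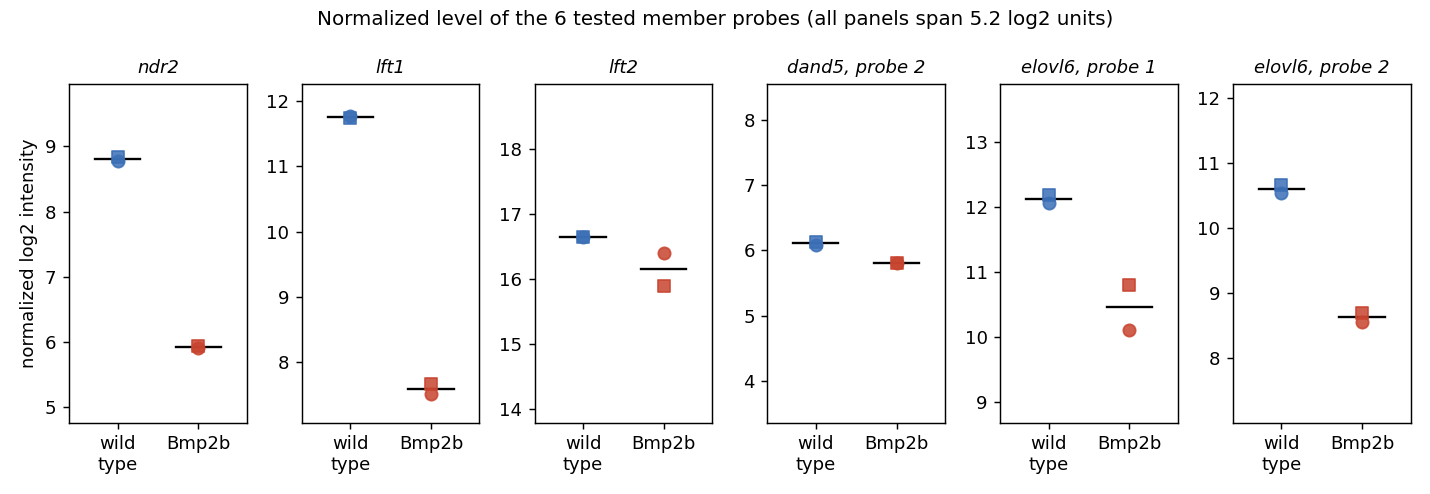
Normalized log2 intensity of the 6 tested member probes on each array (circles, replicate 1; squares, replicate 2), with the group mean as a line; every panel spans the same range of log2 units. The groups are far apart for ndr2, lft1 and both elovl6 probes, while the lft2 and dand5 groups lie close together; ndr2 and dand5 were not above background in Bmp2b.

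The antagonist gene dand5 (charon) has 2 probes, and neither gave a clear signal. The probe A_15_P119704 (gene ID 791454) read 23.0, 22.0, 27.0 and 25.0 and was below background on all 4 arrays. The probe A_15_P288371 read 34.0 and 36.0 in wild type, 1.03 and 1.12 times background, and 26.0 and 25.0 in Bmp2b, 0.520 and 0.521 times background. It was tested because it just passed the limit in wild type, and its log2 difference of -0.30 did not pass (limma adjusted p = 0.134). The sign turned with scaling to the 75th percentile, to 0.96. No fold is given, since the wild-type level lay under the lowest level that counts as above background on the Bmp2b arrays.

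The gene elovl6 encodes an elongase of long-chain fatty acids, and both of its probes were lower in Bmp2b hearts. The probe A_15_P108810 (gene ID 317738, NM_199532) read 7508 and 8035 in raw intensity in wild type and 348 and 1692 in Bmp2b. The probe A_15_P221101 of the same transcript read 2576 and 2758 against 119 and 367. All 8 readings lay above background, the lowest at 2.38 times it, and the groups did not overlap for either probe after normalization. After normalization 38.7% of all tested probes had both Bmp2b arrays below both wild-type arrays. On the log2 scale the difference was -1.67 ± 0.27 for the first (SE; 3.17-fold lower; limma adjusted p = 0.0348) and -1.97 ± 0.13 for the second (3.92-fold lower; limma adjusted p = 0.0164). Bmp2b array 1 was 4.04-fold and 4.10-fold below wild type with the 2 probes, and array 2 was 2.49-fold and 3.74-fold below. The first probe thus differed between the Bmp2b arrays by 0.70 log2 units and the second by 0.14. With wild type as 1 sample neither passed, with adjusted p = 0.295 and 0.212, and 0.130 and 0.0709 when the prior also followed intensity and was robust. With scaling to the 75th percentile the first gave an adjusted p of 0.0658 and the second one of 0.0467.

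**Figure D3:**
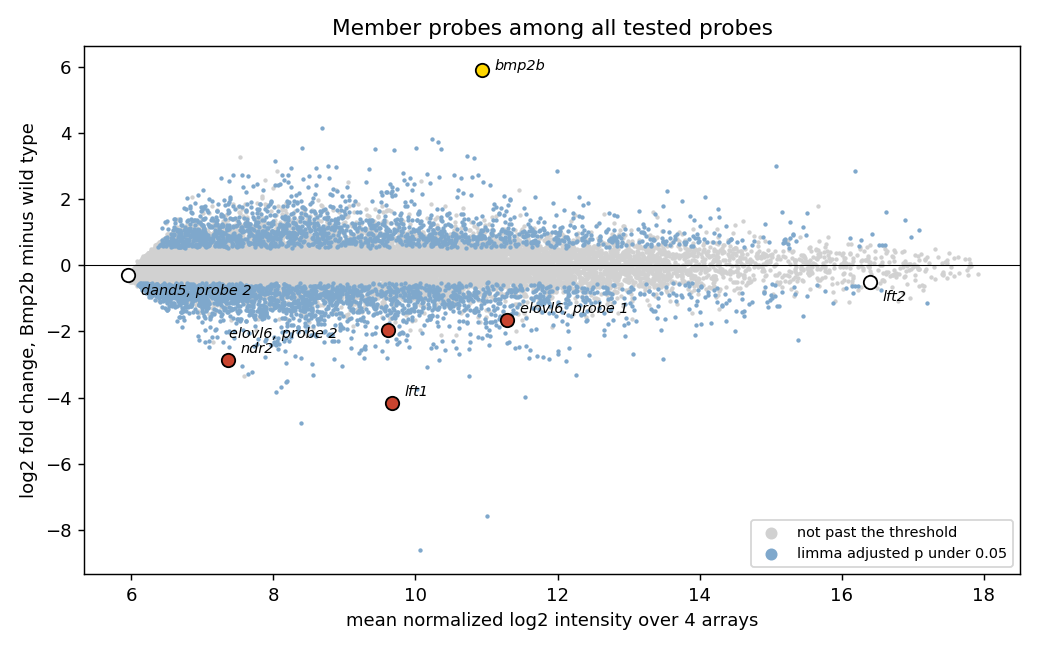
Log2 fold change (Bmp2b minus wild type) of all 24454 tested probes against their mean normalized log2 intensity over 4 arrays; blue points passed limma's adjusted p of 0.05, grey points did not, and labelled red, white and gold points are member probes that passed, member probes that did not, and bmp2b. The lft1 point at -4.18 lies near the lower edge of the cloud, elovl6 and ndr2 lie lower than most probes, and lft2 sits at the bright end close to 0; the ndr2 point is a fitted value, since its Bmp2b signal was not above background.

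Among all tested probes, 5.05% had a log2 difference of -1 or below. The most negative came first, so lft1 ranked 4th, and the elovl6 probes 153rd and 253rd, while lft2 ranked 4544th of 24454. No rank is given for ndr2 and dand5, whose Bmp2b signal was not above background. The 2 Bmp2b arrays gave close values for lft1, 0.15 log2 units apart, and for the second elovl6 probe. The first elovl6 probe was 0.70 log2 units higher on array 2. For lft1 the signal of the Bmp2b arrays was only 1.20 and 3.23 times background. The wild-type arrays were within 0.14 log2 units of each other for all 6 tested member probes.

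The medians of several marker lists differed between the Bmp2b arrays. For Bmp2b arrays 1 and 2 the neural list had median log2 differences of -0.47 and 1.35, and the epidermal list of -0.65 and 2.26. The notochord and floor plate list had -0.35 and 1.39, and the endoderm and yolk list -0.10 and 1.07. Heart muscle had -0.12 and -0.37, and all genes tested had -0.02 and 0.03. On the same arrays lft1 was at -4.25 and -4.10. The first elovl6 probe was at -2.02 and -1.32, so higher on array 2, and the second at -2.04 and -1.90. The lft1 signal there was 1.20 and 3.23 times background, so the closeness of its values cannot be set against the lists. Of the neural list 0 of 12 tested genes passed (limma; 1 at an unadjusted p under 0.05), and its brightest members in wild type, sox3 and sox2, had log2 differences of -0.80 and 0.60 (limma adjusted p = 0.559 and 0.518). Of 7 epithalamus markers on the array, exorh and aanat2, both of the pineal organ, were above background on none of the arrays. Of the 5 tested, 1 fell and 4 did not pass, and the median was -0.09. The gene that fell was crx, for a homeobox factor of pineal and retinal photoreceptors, with a log2 difference of -1.55 ± 0.26 (limma adjusted p = 0.0369), with its Bmp2b signal above background on array 2 only, and its second probe, at -1.09, passed with no Bmp2b signal above background. The brightest of these markers in wild type, cxcr4b and otx5, had log2 differences of -0.09 and -0.21 (limma adjusted p = 0.705 and 0.382). The summed normalized intensity of the 5 epithalamus markers was 2150 and 2256 in wild type and 1759 and 2099 in Bmp2b. That sum is mostly the signal of cxcr4b and says little of the dimmer crx. The part of these tissues in the levels of lft1, ndr2 and elovl6 was not tested.

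**Figure D4:**
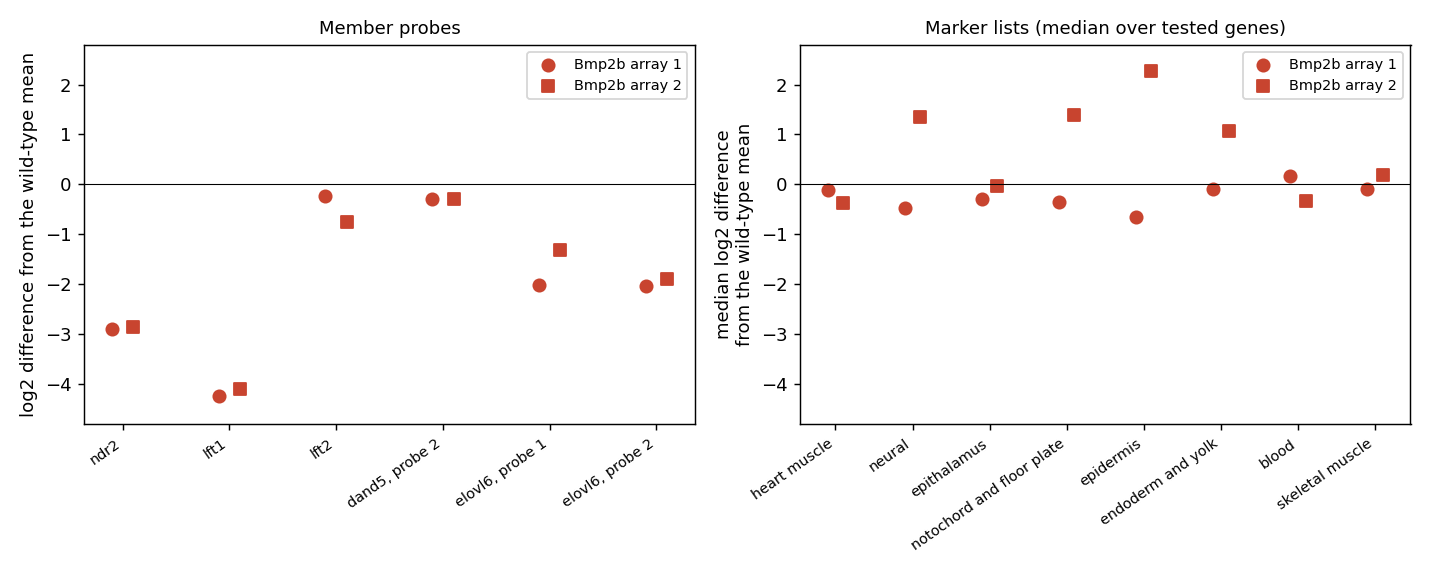
Left, log2 difference of each tested member probe from the wild-type mean on Bmp2b array 1 (circles) and array 2 (squares). Right, the median of the same difference over the tested genes of each marker list. The lft1 values are -4.25 and -4.10, from Bmp2b signals of 1.20 and 3.23 times background. The neural median goes from -0.47 to 1.35 and the epidermal median from -0.65 to 2.26. The notochord and floor plate median and the endoderm and yolk median also lie higher on array 2.

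The other genes of the pathway mostly did not pass. Over 4 lists of receptors and transducers, target genes, genes of cilia and the left-right organizer, and genes of heart asymmetry, 46 of 51 genes were on the array and 41 were tested, of which, by the brightest probe, 2 rose, 1 fell and 38 did not pass, with a median log2 difference of 0.01, which lay between -0.15 and 0.37 under the other scalings and inputs. Of 28 further, dimmer tested probes of these genes, 0 were called higher and 5 lower. Over all tested probes 6.82% were higher and 9.03% lower. Over all 11376 genes tested, each by its brightest probe, 9.00% rose and 8.22% fell, and the median was 0.01, and 0.14 with scaling to the 75th percentile. The count over the lists was 0 with wild type as 1 sample in limma, where 4 genes had an unadjusted p under 0.05. It was 26 without Bmp2b array 1 and 30 without Bmp2b array 2, and 0 without either wild-type array.

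Of 14 tested receptor and transducer genes, 0 passed in limma by their brightest probe. An unadjusted p under 0.05 was held by 6 of them, against 4367 of all 11376 genes tested. The list median was -0.24 (-0.26 and -0.09 for the Bmp2b arrays), which turned to 0.24 with scaling to the 75th percentile. The coreceptor gene tdgf1 (oep), the brightest of the list in wild type, lay at 14.71 and 14.73 there and at 15.30 and 15.10 in Bmp2b, a difference of 0.48 ± 0.13 (limma adjusted p = 0.0771). Its second probe was at -0.16. The gene of the Nodal pathway transcription factor Foxh1, foxh1, had a difference of -0.38 ± 0.14 (limma adjusted p = 0.135), and its second probe of -0.62 passed with an adjusted p of 0.0375. The activin receptor gene acvr1ba was at -0.52 (limma adjusted p = 0.110), and its second probe, at -0.93, passed with an adjusted p of 0.0475. The gene furina, for a proprotein convertase, had a difference of 1.25 ± 0.29 (limma adjusted p = 0.0602), and its second probe of 0.13. The gene gdf3 (vg1), whose product forms dimers with Nodal ligands in zebrafish, had a difference of -0.55 ± 0.26 (limma adjusted p = 0.207). The Smad genes smad2, smad3a and smad3b had differences of -0.24, -0.33 and 0.01 (limma adjusted p = 0.248, 0.117 and 0.974).

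Of 13 tested target genes of Nodal signalling, 0 passed (limma; 1 at an unadjusted p under 0.05), with a median of 0.09 (-0.19 for Bmp2b array 1 and 0.07 for array 2; 0.75 with scaling to the 75th percentile). The brightest in wild type were gata5 and gata6, for endoderm and heart GATA factors, and foxa2, for an endoderm and floor plate factor. Their log2 differences were 0.50, -0.13 and 0.52 (limma adjusted p = 0.332, 0.453 and 0.664). A second gata5 probe differed in sign and passed, at -0.58 (limma adjusted p = 0.0432).

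Of 8 tested genes of cilia and the left-right organizer, ift88, for an intraflagellar transport protein, rose by 0.86 ± 0.13 (limma adjusted p = 0.0306) and 7 did not pass. Its other tested probes, at 0.49 and at -0.22 with no Bmp2b signal above background, did not pass. The genes foxj1a, dnah9 and bicc1a were above background on none of the arrays. The brightest of the list, kif3a, for a kinesin motor of cilia, had a difference of 0.25, and rfx2, for a ciliary transcription factor, of 0.02 (limma adjusted p = 0.538 and 0.939). A second kif3a probe differed in sign and passed, at -0.72 (limma adjusted p = 0.0353), and others, at -0.69 and -0.12, did not pass.

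Of 6 tested genes of heart asymmetry, prrx1a rose, tbx5a fell and 4 did not pass. The homeobox gene prrx1a, which acts in left-right asymmetry of the heart in zebrafish, lay at 9.46 and 9.42 in wild type and at 11.21 and 11.10 in Bmp2b, and was higher by 1.72 ± 0.11 (limma adjusted p = 0.0167). The T-box gene tbx5a fell by 0.91 ± 0.16 (limma adjusted p = 0.0386), and its second probe, with no Bmp2b signal above background, did not pass. The tbx5a probe that passed read 52.5 and 92 in raw intensity on Bmp2b arrays 1 and 2, where background was 50 and 48. It was thus only just above background on array 1. The brightest of the list were bmp4, nkx2.5 and meis2b, with differences of -0.39, -0.25 and -0.81 (limma adjusted p = 0.385, 0.300 and 0.0742). Another meis2b probe passed, at -1.14 (limma adjusted p = 0.0290), and the remaining one, at -0.45, did not. The second nkx2.5 probe differed in sign, at 0.43 (limma adjusted p = 0.0913).

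**Figure D5:**
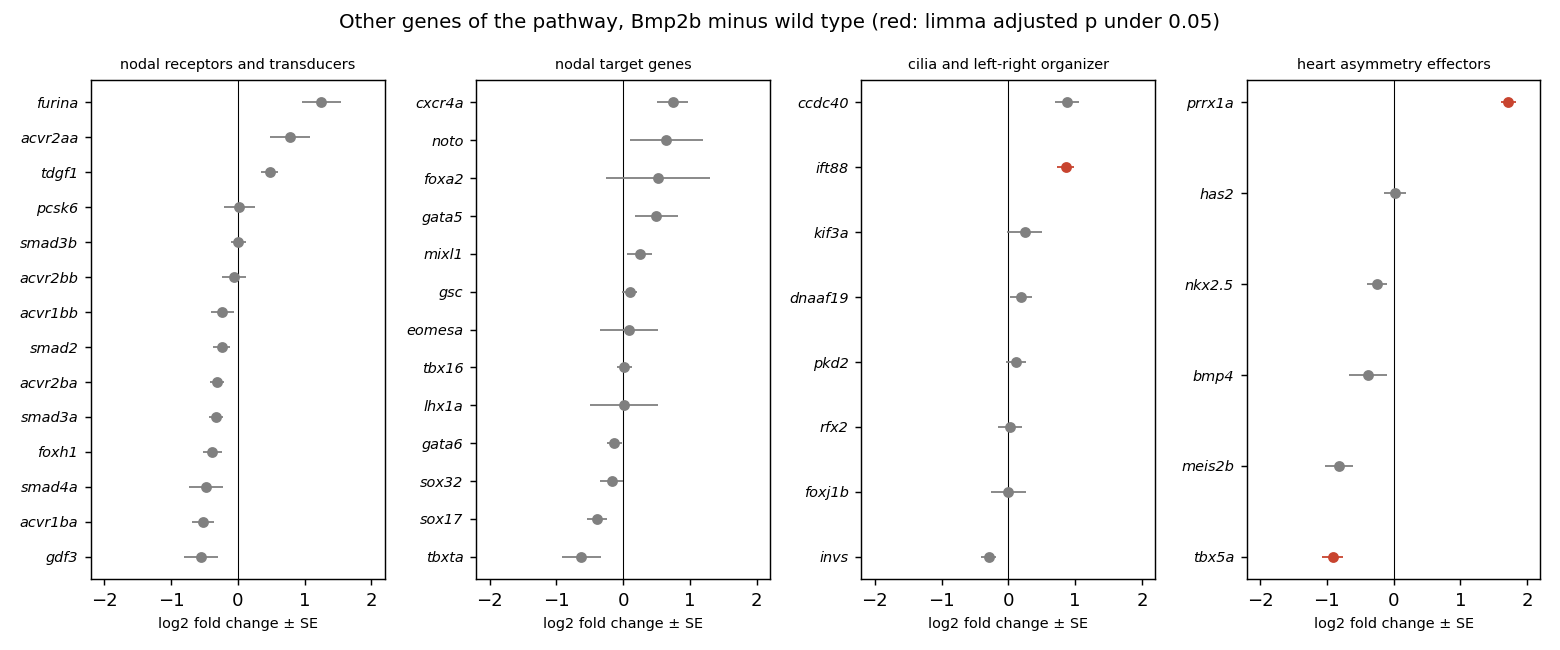
Log2 fold change (Bmp2b minus wild type, brightest tested probe of a gene, bars ± SE from limma) of the tested genes in 4 lists. Only ift88, prrx1a and tbx5a are red, for an adjusted p under 0.05, and the receptor, transducer and target genes lie on both sides of 0.

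Genes with the most similar pattern over the 4 arrays were looked for among 10621 other named genes, by the root mean square difference of log2 values after taking off each gene's mean. For lft1 the nearest was tmem88a, at 0.44 log2 units, where its own log2 difference between groups was -3.32, followed by mhc1lia and srl at 0.57 and 0.58. The Bmp2b signal of tmem88a was under background on array 1, and that of mhc1lia on both arrays. For ndr2 the nearest were cs, mettl21e and wnt8-2, at 0.04, 0.07 and 0.08, and for lft2 nt5c3a, specc1la and vti1a, at 0.004 to 0.01. For the first elovl6 probe the nearest were crx, ubac1 and rbm15, at 0.06 to 0.07, and for the second cfp, ndnf and sst1.1, at 0.04 to 0.08. For the second dand5 probe they were gzm3.4, fbxl3b and gls2b, at 0.01 each. With 4 arrays in 2 groups, this likeness is mostly that of the difference between groups. The Bmp2b values of ndr2 and the second dand5 probe were under background, so how close other genes lie to them was not measured. Of the like genes, cfp, sst1.1, gzm3.4 and gls2b were under background on both Bmp2b arrays, and mettl21e, crx and ubac1 on array 1.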

How the data were processed

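The deposited values were linear Cy3 spot intensities. The submitters' processing notes name Agilent Feature Extraction without a version. One table of the authors held the raw median intensity of 43803 spots, per its comment line, and another processed intensities, lower at the dim end than the raw ones, and no source used here says how they were made. All 43553 probes of the value table of the series equalled it. No column flagged saturated spots.

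Raw intensities were corrected by normexp (offset 50), log2-transformed and quantile-normalized, and spots of a probe were averaged. Probes above 2 times the array's 5th percentile on at least 2 of 4 arrays were tested with limma 3.58.1 (lmFit, eBayes, two-sided, Benjamini-Hochberg over 24454 probes, threshold 0.05) in R 4.3.3. The fit was tested on simulated data with the same spread on all 4 arrays. Between the real arrays the median difference was 0.061 log2 units in wild type and 0.29 in Bmp2b. The simulation does not cover that unequal spread. The precision is limited by the number of arrays. Probes were named from the platform's annotation (23667 with 1 symbol, 0 with several, 19936 unnamed), and all 7 members had their gene ID in the current gene table (GRCz12tu, used for names). Values without p are descriptions. The text names every member probe, bmp2b, the pathway list genes past the threshold by their brightest probe, and the 3 brightest of each pathway list. It also names the 2 brightest of the neural and epithalamus marker lists and 3 like genes for each tested member probe. Further list members were chosen after their values were seen. Members and lists were chosen with earlier results of these data known. Alternatives were other background corrections, scalings, filters and inputs, each array left out, wild type as 1 sample, and replicate number or slide as a block. For 2 pairs, the deviations of same-numbered arrays correlated with r = 0.0935 across probes.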

Additional observations from a re-analysis of the deposited data

How the results depend on the processing

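The bmp2b rise and the falls of lft1 and both elovl6 probes kept their direction under each alternative tried. Other filters, blocks and wild type as 1 sample leave a log2 difference as it is. Only the other corrections, scalings and inputs and the left-out arrays could turn a sign. The ndr2 difference was negative wherever it was tested. It entered the test through wild type alone, so its sign does not count as support. With signal required on all 4 arrays ndr2 was not tested. The calls of bmp2b and these members depend on how close the wild-type arrays were. With wild type as 1 sample the log2 differences of 5.91 (bmp2b), -4.18 (lft1), -2.88 (ndr2, a fitted value), -1.67 and -1.97 (elovl6) are the same and no longer passed, nor with a random block for slide (correlation set to 0.5; adjusted p = 0.0794 for bmp2b, lft1 and ndr2, 0.164 and 0.0926 for elovl6). With the trend and robust prior only the elovl6 probes, at -1.67 and -1.97, did not pass. Scaling to the 75th percentile, which moved the median of all tested probes from -0.06 to 0.28, left ndr2 at -2.26 and the first elovl6 probe at -1.93 without a call and turned the second dand5 probe to 0.96. The fitted values with no Bmp2b signal above background also grew: ndr2 was at -3.95 without background correction, -3.92 with an offset of 16, and -6.70 and -6.04 with processed intensities (quantile and 75th percentile), and dand5 at -0.70, -0.66, -1.60 and -1.03. Cyclic loess gave -2.33 for ndr2, and without a filter the first elovl6 probe (-1.67) had an adjusted p of 0.0570.

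Leaving out 1 array gave 5.76 to 6.06 for bmp2b, -4.25 to -4.10 for lft1, -2.91 to -2.85 for ndr2, -2.02 to -1.32 and -2.04 to -1.90 for elovl6, -0.75 to -0.24 for lft2 and -0.32 to -0.28 for the second dand5 probe. Without either wild-type array none of these passed, and without either Bmp2b array all of them did, where only the wild-type arrays give a spread and the lone Bmp2b array is assumed to vary like them. Probes called higher then went from 0 to 7462 and lower from 1 to 9565, and pathway genes from 0 to 30.

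The counts of 1668 probes higher and 2208 lower became 493 and 378 with scaling to the 75th percentile, 1067 and 1562 with processed intensities, 824 and 1217 with processed intensities under 75th percentile scaling, and 76 and 113 with wild type as 1 sample and the trend and robust prior. They were 0 and 1 in limma both with wild type as 1 sample (1264 and 1690 at an unadjusted p under 0.05) and with slide as a block (2176 and 2996). Pathway genes called, 3 in the report, were 0 in all of these last 3 fits (4 at an unadjusted p under 0.05 in each). With replicate number as a block, which the labels do not tie to a shared batch, they were 5, with 1347 probes higher and 1709 lower, and no member gained or lost its call (lft1 adjusted p = 0.00336). Signals near background limit ndr1, spaw, dand5 and the Bmp2b levels of ndr2 and lft1.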

Other observations

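Other elongase genes, looked at after the fall of elovl6 was seen, went both ways. Of 11 elovl genes on the array 9 were tested, and by their brightest probe 1 fell (elovl6), 2 rose and 6 did not pass, with a median log2 difference of -0.11. Those that rose were elovl1b, from 8.02 and 8.04 in wild type to 9.75 and 9.14 in Bmp2b (log2 difference 1.42 ± 0.24 SE; limma adjusted p = 0.0371), and elovl8b, from 7.75 and 7.77 to 8.61 and 8.62 (0.86 ± 0.11; limma adjusted p = 0.0243). With wild type as 1 sample neither passed (limma adjusted p = 0.324 and 0.390). The 2 elovl1a probes were at -0.56 and -0.85 and did not pass (limma adjusted p = 0.195 and 0.0933), and elovl5 was at -0.13 (limma adjusted p = 0.765).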
